A study of Mus musculus with 9 samples.

Results

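Upper glycolysis, the stretch of the pathway from glucose uptake to phosphofructokinase, is described here by 10 genes chosen by name: the glucose transporter genes Slc2a1 and Slc2a3, the hexokinase genes Hk1 and Hk2, the glucose-6-phosphate isomerase gene Gpi1, the phosphofructokinase genes Pfkl, Pfkm and Pfkp, and the bifunctional regulator genes Pfkfb3 and Pfkfb4. All 10 were found among the 23366 named rows of the count table and all 10 passed the filter on low counts, which left 14988 genes. RNA of mouse embryonic stem cells (strain label 129 SvJae F1, passage 21, medium with 10% fetal bovine serum and leukaemia inhibitory factor) was sequenced from wild-type cells and from cells in which Sirt6, which encodes a histone H3 deacetylase, had been knocked out, with 3 libraries in each group. The labels do not say how the knockout was made, whether it is 1 clone, or whether replicates are separate cultures. P-values therefore measure the spread between these libraries, which may be technical. The remaining group, wild-type cells deprived of glucose, was not analysed here. The knockout comparison asks which transcripts differ when SIRT6 is missing, and within each enzyme family the paralogous genes were compared with each other.

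Glucose enters cells through facilitative transporters and is phosphorylated by hexokinase, which traps it. The isomerase then makes fructose-6-phosphate, and phosphofructokinase adds another phosphate in the step that commits the sugar to glycolysis. Phosphofructokinase is a tetramer that can mix liver (PFKL), muscle (PFKM) and platelet (PFKP) subunits, and it is activated by fructose-2,6-bisphosphate, which the PFKFB enzymes make and break. Mouse embryonic stem cells grown in serum draw heavily on glycolysis, and SIRT6 is known as a corepressor of glycolytic genes that the hypoxia-inducible factor HIF1A activates.

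The promoters of the phosphofructokinase genes are printed because the 3 genes rose together, and that of Hk2 because it fell. Each line gives the 250 bases before an annotated start, 5′ to 3′ on the strand of the gene, from RefSeq (GRCm38.p6, which is not the authors' build). For Pfkm, which has 4 annotated starts, the most upstream one is shown. Capitals mark ACGTG and GCGTG, the core letters of the hypoxia response element, and CACGTG, the E-box bound by MYC and by carbohydrate response factors, on either strand (the other strand reads CACGT and CACGC, and CACGTG contains ACGTG).
Pfkp (chr13:6648772-6649021, minus strand): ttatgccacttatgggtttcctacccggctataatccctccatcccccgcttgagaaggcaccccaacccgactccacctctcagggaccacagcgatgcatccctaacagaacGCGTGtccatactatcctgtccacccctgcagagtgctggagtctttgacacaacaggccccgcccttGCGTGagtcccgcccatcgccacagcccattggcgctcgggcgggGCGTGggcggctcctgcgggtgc
Pfkl (chr10:78009808-78010057, minus strand): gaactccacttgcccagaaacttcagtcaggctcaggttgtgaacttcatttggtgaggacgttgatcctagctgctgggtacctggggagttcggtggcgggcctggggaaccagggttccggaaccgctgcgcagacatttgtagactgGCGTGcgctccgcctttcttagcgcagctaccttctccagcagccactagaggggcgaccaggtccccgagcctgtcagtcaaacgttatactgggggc
Pfkm (chr15:98092339-98092588, plus strand): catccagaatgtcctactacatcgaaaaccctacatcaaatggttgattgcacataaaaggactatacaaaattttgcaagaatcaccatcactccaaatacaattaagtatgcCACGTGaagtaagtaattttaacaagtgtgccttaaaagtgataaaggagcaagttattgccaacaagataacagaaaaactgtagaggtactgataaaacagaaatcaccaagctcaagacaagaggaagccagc
Hk2 (chr6:82774455-82774704, minus strand): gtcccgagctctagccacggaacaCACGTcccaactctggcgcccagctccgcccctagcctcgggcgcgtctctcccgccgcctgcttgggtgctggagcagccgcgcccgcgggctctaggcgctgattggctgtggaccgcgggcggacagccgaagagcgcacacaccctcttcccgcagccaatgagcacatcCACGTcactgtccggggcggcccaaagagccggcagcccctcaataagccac
In these windows Pfkp has GCGTG at 3 places, beginning 136, 68 and 23 bases before the start. Pfkl has it at 1 place, 99 bases before the start. The Pfkm window shown has no GCGTG and holds CACGTG, from 136 bases before the start, which reads as ACGTG on both strands. Of the other 3 Pfkm windows, 2 overlap and hold GCGTG at the same site. The more upstream of these also holds ACGTG on the other strand, 244 bases before the start. The last Pfkm window has no match. Which start these cells use was not tested. Hk2 has no GCGTG and has ACGTG on the other strand at 2 places, 226 and 52 bases before the start. Of all 32851 RefSeq windows of this length, 28.2% held GCGTG, 16.6% ACGTG and 6.02% CACGTG. Among the members 9 had such windows (Slc2a3 had none), 14 in all, of which 8 held GCGTG, 6 ACGTG and 2 CACGTG. The GC content of these 14 ran from 36.4% to 69.6% and was not matched to that of all windows. The shared Pfkm site is counted in both of its windows, so the 14 windows are not independent. These matches describe letters and not binding.

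The libraries held 20107037 to 29267115 counts each. Counts of Sirt6 itself were 348, 341 and 342 in wild type against 12, 6 and 6 in the knockout, where it fell 42.2-fold. The groups also differed on the sex chromosomes: Kdm5d, a Y-linked gene, summed to 0 counts in wild type and to 191 in the knockout, and Xist, the RNA of the inactive X chromosome, fell from 38.2 ± 6.23 to 4.06 ± 0.662 CPM. The loss of Sirt6 and this difference between the cells cannot be told apart in any comparison here. Embryonic stem cell markers were abundant in both groups, with summed levels of 6384 to 6970 CPM (counts scaled to a common library size) over 10 genes in wild type and 6561 to 8160 CPM in the knockout. Of these, 5 fell (Sall4 by 0.93, Lin28a by 0.69, Utf1 by 0.64, Pou5f1 by 0.46 and Nanog by 0.32 on the log2 scale) and 3 rose (Tdgf1 0.89, Dppa5a 0.76 and Sox2 0.40). The 7 neuron markers summed to 31.6 to 35.8 CPM in wild type and 264 to 386 CPM in the knockout, nearly all of it Stmn2 (26.3 ± 2.27 to 319.6 ± 62.6 CPM, SD, n = 3). All 5 tested rose, with Dcx and Snap25 below 1 CPM in both groups. The 10 fibroblast markers summed to 4.35 to 5.06 and 32.2 to 40.2 CPM, and all 6 that could be tested rose (median log2 fold change 3.20). Most of the knockout sum was Tagln (2.21 ± 0.653 to 21.7 ± 3.89 CPM). Of the 10, 5 averaged below 1 CPM in both groups (Col1a2, Col3a1, Postn, Lum and Dcn), with Lum at 0 counts throughout. The 8 endoderm markers summed to 37.7 to 39.4 and 2.65 to 4.38 CPM, and all 5 tested fell, with Ttr at 0 counts. The 8 muscle markers summed to 0.745 to 1.26 CPM in wild type and 2.42 to 3.60 CPM in the knockout. Acta1, the 1 gene of them that could be tested, rose (log2 fold change 3.18). The other 7 averaged below 1 CPM in both groups. The 6 erythroid markers summed to 1.76 to 2.12 and 2.99 to 3.84 CPM, and of the 3 tested Gata1 (1.45) and Slc4a1 (2.71) rose, with Hbb-b1 and Hba-a1 at 0 counts. Among the markers tested, Col1a2, Col6a2, Acta2, Acta1, Syt1, Gata1 and Slc4a1 passed the filter on low counts only through the knockout libraries. Gata6 and Sox17 passed it only through wild type. The direction of these genes came with the filter and is not a result in itself. By the test described below, 27.9% of all genes tested rose and 27.8% fell. The part of the marker differences in the results was not tested. In bulk RNA a change in the share of cells of a type and a change in RNA per cell cannot be told apart.

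Of the 10 members, 4 rose in the knockout (Pfkp, Pfkl, Pfkm and Slc2a3) and 1 fell (Hk2) by the quasi-likelihood test of edgeR (threshold 0.05 on the adjusted p). That is 5 of 10 against 55.7% of all genes tested, with 27.9% of all genes called higher and 27.8% called lower, so the share of members called was near the background. The members' median log2 fold change was 0.27, beside 0.01 over all genes tested. The groups did not overlap in 7 members, against 63.2% of all genes. Pfkp was the 1 member called with a log2 fold change of at least 1, where 12.6% of all genes were called higher with such a change. All levels that follow are CPM after scaling by the trimmed mean of M values (TMM), and ± is the SD over 3 libraries for a level and the standard error (SE) for a log2 fold change.

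**Figure D1:**
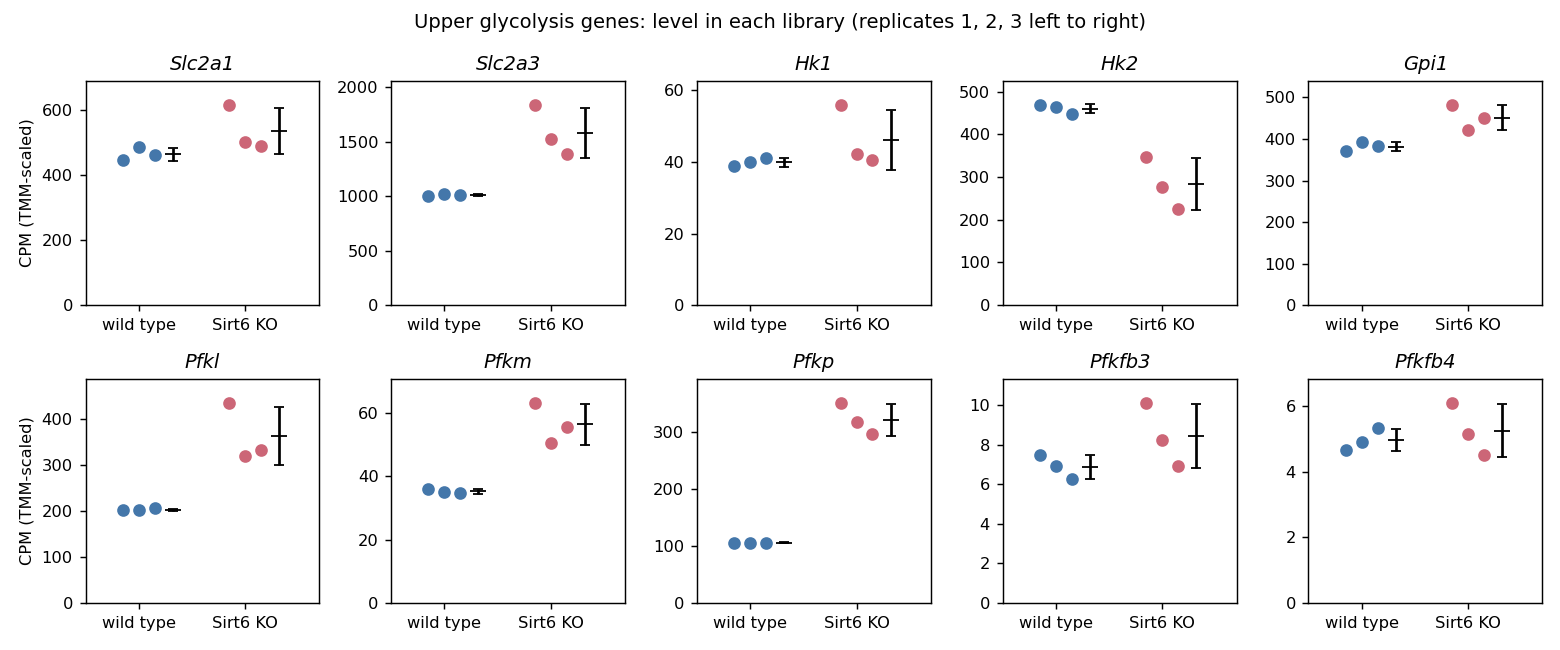
Level of each member (CPM, TMM-scaled, axes from 0) in the 3 wild-type and 3 knockout libraries, with mean ± SD beside the points. Pfkp went from 105 to 106 CPM in wild type to 296 to 352 CPM in the knockout, Hk2 from 448 to 469 to 226 to 346 CPM, and the points of Hk1, Pfkfb3 and Pfkfb4 overlapped between the groups.

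Of the glucose transporter pair, Slc2a3 rose and Slc2a1 did not pass the test. Slc2a3, which encodes the high-affinity transporter GLUT3, was at 1007, 1025 and 1009 CPM in wild type and at 1837, 1522 and 1387 CPM in the knockout. Every knockout library lay above every wild-type library, and the gene rose 1.56-fold (log2 fold change 0.64 ± 0.13, adjusted p = 0.00143, edgeR). Slc2a1, which encodes the widely expressed transporter GLUT1, was at 445, 485 and 462 CPM in wild type and at 615, 501 and 489 CPM in the knockout. The lowest knockout library stood just above the highest wild-type library, and the difference did not pass the test (0.21 ± 0.12, adjusted p = 0.155, edgeR). With total counts as the scaling it did (0.33, adjusted p = 0.0474, edgeR), and without knockout replicate 1 it was 0.10 (adjusted p = 0.292). Per kilobase of the longest annotated transcript, Slc2a3 made up 64.3% ± 0.775 of the pair's level in wild type and 70.9% ± 0.748 in the knockout. The log2 ratio of Slc2a3 to Slc2a1 counts within a library, which does not depend on the scaling between libraries, went from 1.13 ± 0.05 to 1.56 ± 0.05 with no overlap. The difference of 0.43 ± 0.04 (SE) had a two-sided exact permutation p of 0.1, the smallest that 3 libraries against 3 can give, and an adjusted p of 0.12 over the 6 ratios tested.

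Hexokinase transcripts moved the other way, through Hk2. Hk2, the inducible hexokinase of growing cells, was at 469, 464 and 448 CPM in wild type and at 346, 277 and 226 CPM in the knockout. All knockout libraries lay below all wild-type libraries, although they differed from each other more than the wild-type ones did. The gene fell 1.62-fold (log2 fold change -0.70 ± 0.14, adjusted p = 0.00168, edgeR). Hk1, the constitutive hexokinase, was at 38.7, 39.8 and 41.2 CPM in wild type and at 55.8, 42.2 and 40.5 CPM in the knockout. These groups overlapped, the first knockout library standing above the rest, and the gene did not pass (0.21 ± 0.13, adjusted p = 0.175, edgeR), except once the dependence of each library on GC content and transcript length was removed (0.29, adjusted p = 0.00172, edgeR). Without knockout replicate 1 the value was 0.06 (adjusted p = 0.529, edgeR). Per kilobase of the longest transcript, Hk2 still supplied 82.6% ± 1.20 of the pair's level in the knockout, against 89.9% ± 0.487 in wild type. With median transcript lengths Hk2 also stood above Hk1 in both groups, but its share was smaller in each. The summed level of both genes went from 92.8 ± 1.66 to 62.2 ± 12.8 CPM per kilobase. The log2 ratio of Hk2 to Hk1 counts went from 3.53 ± 0.08 to 2.61 ± 0.12, a difference of -0.92 ± 0.08 (SE) with no overlap (two-sided exact permutation p = 0.1, adjusted p = 0.12).

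Gpi1, the single isomerase gene between the hexokinase and phosphofructokinase steps, was at 370.0, 392 and 384 CPM in wild type and at 482, 421 and 450 CPM in the knockout. The groups did not overlap, and the difference missed the threshold (0.24 ± 0.10, adjusted p = 0.0607, edgeR). The call was close to the line: DESeq2 size factors (adjusted p = 0.0464), total counts (0.0151), a filter at a mean of 1 CPM (0.0381), DESeq2 itself (0.0278), the fit without knockout replicate 1 (0.0442) and the removal of the length and GC trend (0.0379) each brought it under 0.05, with log2 fold changes of 0.14 to 0.36. In the authors' deposited table Gpi1 had a log2 fold change of 0.24 and an adjusted p of 0.0323, and 6 members passed there, the 5 named above and Gpi1.

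The phosphofructokinase genes all rose, Pfkp the furthest. Pfkp was at 105, 106 and 106 CPM in wild type and at 352, 317 and 296 CPM in the knockout. The groups were far apart, with the lowest knockout library well above the highest wild-type library, and the gene rose 3.04-fold (log2 fold change 1.60 ± 0.10, adjusted p = 5.25e-07, edgeR). Pfkl, the gene of the liver-type subunit, was at 201, 202 and 205 CPM in wild type and at 435, 320 and 332 CPM in the knockout. It rose 1.79-fold without overlap (0.84 ± 0.13, adjusted p = 0.000206, edgeR). Pfkm, the gene of the muscle-type subunit, went from 36.1, 35.1 and 34.6 CPM to 63.3, 50.5 and 55.5 CPM, again without overlap. It rose 1.60-fold (0.68 ± 0.11, adjusted p = 0.000268, edgeR). The summed muscle markers were also higher in the knockout, at 2.42 to 3.60 CPM against 0.745 to 1.26 CPM. Of these, Acta1 went from 0.194 to 1.83 CPM, and the other 7 averaged below 1 CPM in both groups. Their part in the rise of Pfkm was not tested.

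The makeup of the phosphofructokinase transcripts differed between the groups as well. Summed per kilobase, the 3 genes reached 91.8, 91.9 and 92.7 CPM per kilobase in wild type and 223, 180 and 180 CPM per kilobase in the knockout, 2.11 times the wild-type mean. Pfkl supplied 59.0% ± 0.363 of this in wild type and 49.8% ± 2.27 in the knockout, and Pfkp 27.7% ± 0.107 and 40.1% ± 2.32. Pfkm supplied 13.3% ± 0.340 and 10.1% ± 0.535. Pfkl thus stayed the highest of the 3 per kilobase of the longest transcript in both groups. With median transcript lengths Pfkp stood above Pfkl in the knockout, at 194 against 168 CPM per kilobase.

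**Figure D2:**
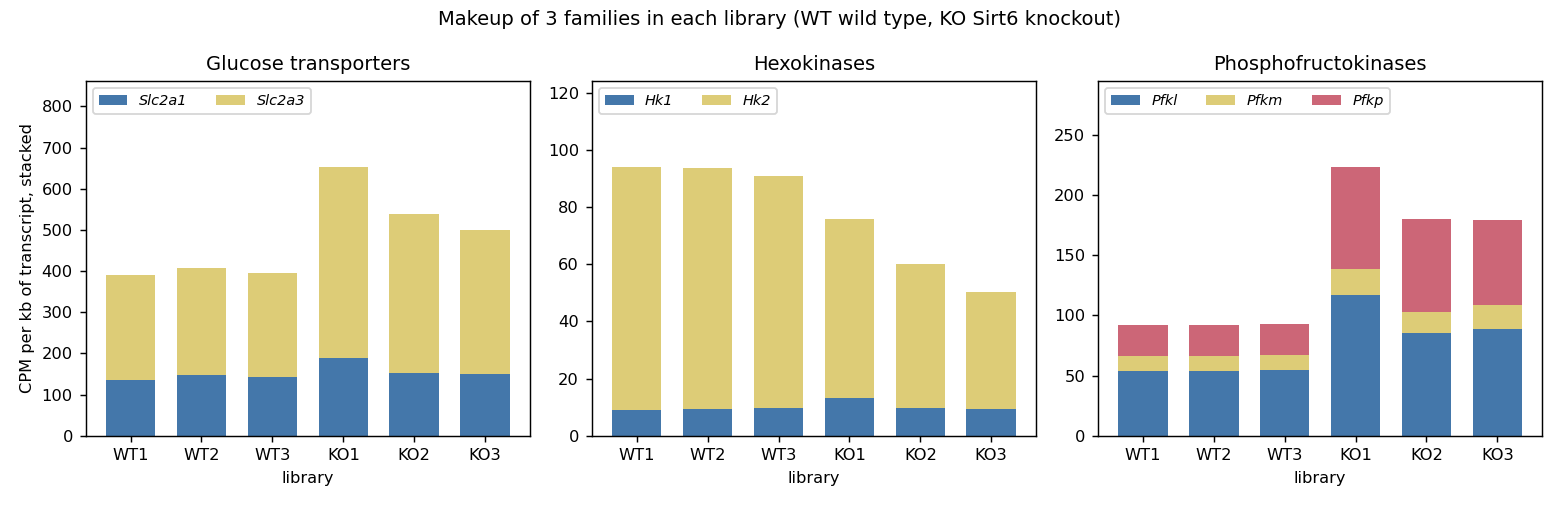
Level per kilobase of the longest transcript (CPM per kilobase, stacked, axes from 0) of the glucose transporter, hexokinase and phosphofructokinase genes in each library. The phosphofructokinase bars stand at 91.8 to 92.7 in wild type and at 180 to 223 in the knockout, where the Pfkp segment is wider, and the hexokinase bars are lower in the knockout.

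Ratios within a library showed the same shift in makeup without any scaling between libraries. The log2 ratio of Pfkp to Pfkl counts was -0.93, -0.93 and -0.95 in wild type and -0.31, -0.01 and -0.17 in the knockout. The groups did not overlap, and the mean difference was 0.78 ± 0.09 (SE), or 1.71-fold in favour of Pfkp. The ratio of Pfkp to Pfkm lay higher in every knockout library than in any wild-type library, with a mean difference of 0.93 ± 0.07, or 1.90-fold. The ratio of Pfkm to Pfkl moved little, by -0.15 ± 0.06, and its groups did not overlap either (-2.48, -2.53 and -2.57 against -2.78, -2.66 and -2.58). The closest values of its groups differed by less than the spread within either group. For these 3 ratios the two-sided exact permutation p was 0.1, the smallest possible, and the adjusted p was 0.12.

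**Figure D3:**
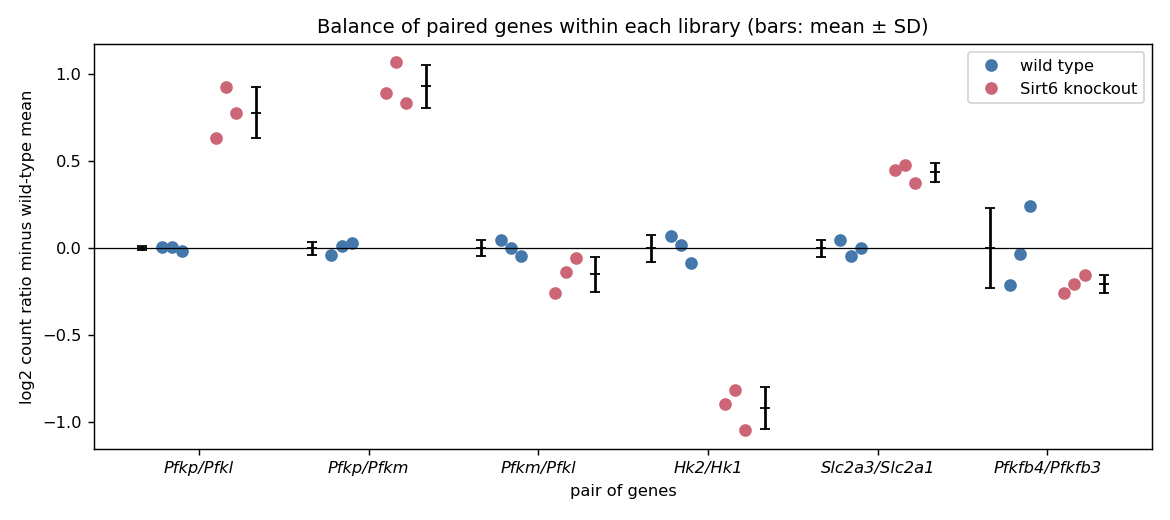
Log2 ratio of the counts of 2 related genes in each library, minus the wild-type mean of that ratio, with mean ± SD as bars. The ratios Pfkp/Pfkl, Pfkp/Pfkm, Hk2/Hk1 and Slc2a3/Slc2a1 stand clear of wild type (mean differences of 0.78, 0.93, -0.92 and 0.43), whereas Pfkfb4/Pfkfb3 overlaps.

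The 2 members that regulate phosphofructokinase, Pfkfb3 and Pfkfb4, were expressed at low levels and did not pass the test. Pfkfb3, whose product has high kinase activity and raises fructose-2,6-bisphosphate, was at 7.49, 6.95 and 6.26 CPM in wild type and at 10.1, 8.27 and 6.96 CPM in the knockout. The groups overlapped (0.30 ± 0.16, adjusted p = 0.117, edgeR). Without knockout replicate 3 the difference passed (0.40, adjusted p = 0.0313), as it did with the length and GC trend removed (0.31, adjusted p = 0.0188), whereas without knockout replicate 1 it was 0.16 (adjusted p = 0.323). Pfkfb4, another gene of a bifunctional enzyme, was at 4.66, 4.90 and 5.33 CPM in wild type and at 6.11, 5.16 and 4.51 CPM in the knockout, with full overlap (0.10 ± 0.15, adjusted p = 0.613, edgeR). Its sign turned without knockout replicate 1 (-0.02). The log2 ratio of Pfkfb4 to Pfkfb3 counts differed by -0.21 ± 0.14 (SE) between the groups, which overlapped (two-sided exact permutation p = 0.3, adjusted p = 0.3). Of the other genes acting on the same metabolite, Pfkfb2 was at 22.8 ± 1.33 CPM in wild type and 24.9 ± 2.61 CPM in the knockout and did not pass (adjusted p = 0.346, edgeR). The X-linked gene Pfkfb1 rose from 8.64 ± 0.618 to 12.4 ± 0.293 CPM (0.52 ± 0.11, adjusted p = 0.00224, edgeR). Tigar, whose product breaks fructose-2,6-bisphosphate down, went from 80.8 ± 2.23 to 45.7 ± 2.27 CPM. Tigar fell 1.77-fold (-0.82 ± 0.09, adjusted p = 2.51e-05, edgeR).

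Across the steps, the order of the members by level per kilobase changed at the hexokinase and phosphofructokinase genes. In wild type the order was Slc2a3 (256 ± 2.48 CPM per kilobase), Slc2a1 (142 ± 6.08), Gpi1 (132 ± 3.79), Hk2 (83.5 ± 1.94), Pfkl (54.4 ± 0.613), Pfkp (25.5 ± 0.112), Pfkm (12.2 ± 0.261), Hk1 (9.33 ± 0.287), Pfkfb3 (1.44 ± 0.129) and Pfkfb4 (1.42 ± 0.0977). The last pair overlapped, and the other neighbours did not. In the knockout Slc2a3 (399.7 ± 58.3) still led, and Slc2a1 (164 ± 21.3) and Gpi1 (156 ± 10.4) overlapped. Pfkl (97.2 ± 16.9) and Pfkp (77.6 ± 6.75) stood above Hk2 (51.4 ± 11.0), followed by Pfkm (19.6 ± 2.24), Hk1 (10.8 ± 1.97), Pfkfb3 (1.76 ± 0.333) and Pfkfb4 (1.51 ± 0.231), the last pair again overlapping. With median transcript lengths Hk2 also led Pfkl and Pfkp in wild type and stood below both in the knockout. Other places in the order changed with that choice: Hk1 then stood above Pfkp in wild type (68.7 against 63.9 CPM per kilobase) and above Pfkm in both groups (68.7 against 12.6, and 79.5 against 20.2).

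**Figure D4:**
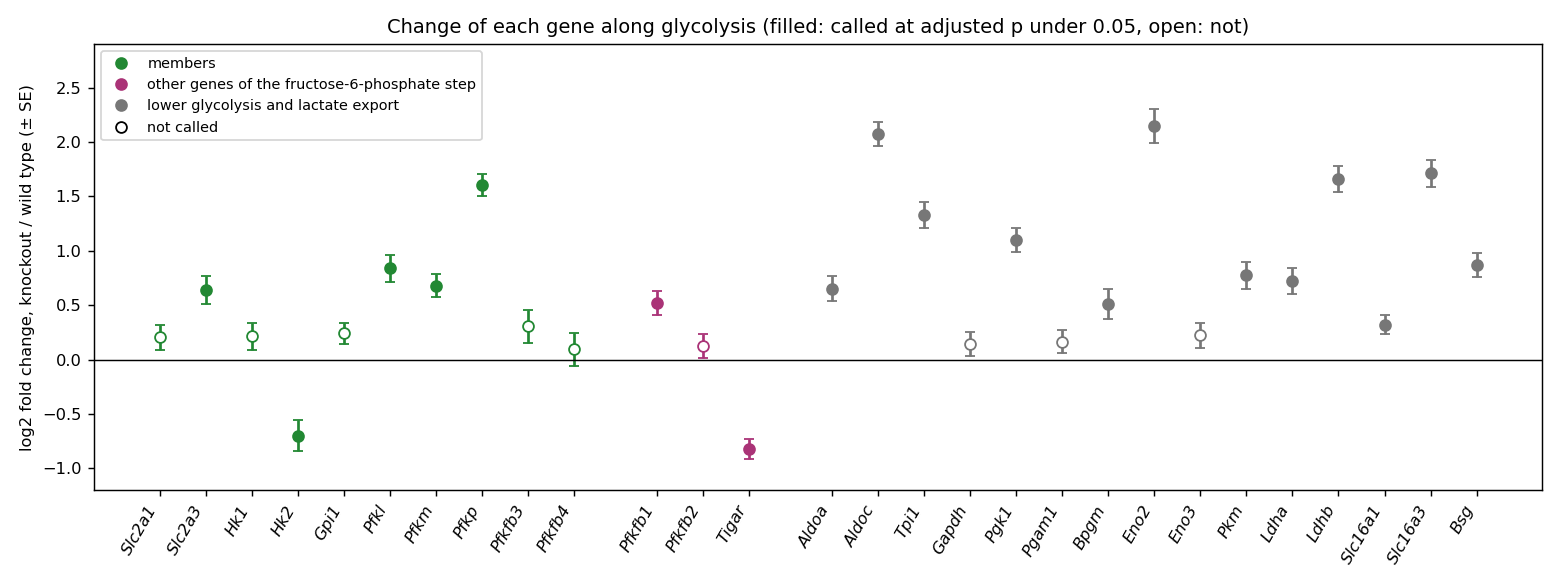
Log2 fold change (knockout over wild type, ± SE) of the 10 members, of the other genes of the fructose-6-phosphate step and of lower glycolysis with at least 5 CPM in 1 group, in pathway order. Hk2 (-0.70) and Tigar (-0.82) lie below 0 as called genes, and Pfkp (1.60) stands highest among the members.

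Relatives of the members, listed by family or step, were mostly scarce. Beside the counts in these lists, 27.9% of all genes tested were called higher and 27.8% lower. Among 11 other genes of the Slc2a and Slc5a transporter families 7 could be tested, of which 5 rose and 1 fell (median log2 fold change 0.57). Slc2a6 (0.876 ± 0.0962 to 4.38 ± 0.939 CPM), Slc2a12 and Slc2a13 rose by 2.33, 1.65 and 2.47 on the log2 scale. Slc2a13 averaged under 1 CPM in both groups (0.105 to 0.598 CPM). The sodium-coupled transporter gene Slc5a1 fell by 2.01 on the log2 scale, from 1.13 ± 0.283 to 0.274 ± 0.0862 CPM. Among the hexokinase relatives described here, Hk3 rose (2.13) and Hkdc1 fell (-1.49), each staying under 1 CPM on average. Hk3 and Slc2a13 passed the filter on low counts only through the knockout libraries, and Hkdc1 and Slc5a1 only through wild type. The direction of these genes came with the filter and is not a result in itself. Adpgk, whose product phosphorylates glucose with ADP, at 59.2 ± 0.343 and 55.9 ± 4.83 CPM, did not pass (-0.08, adjusted p = 0.493, edgeR). Beside Tigar, the fructose-6-phosphate list of 5 genes held the rise of the X-linked gene Pfkfb1 (0.52, adjusted p = 0.00224, edgeR) and the fall of the muscle fructose-bisphosphatase gene Fbp2 (-1.11, adjusted p = 0.00436, edgeR), so that 1 rose and 2 fell.

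Downstream of the members, 16 of 21 tested genes of lower glycolysis and lactate export rose and 1 fell (Pgam2, -0.92). Of all genes tested, 27.9% were called higher and 27.8% lower. The median log2 fold change was 0.77 beside 0.27 for the 10 members. Among the genes that rose, Ldhc and Slc16a7 passed the filter on low counts only through the knockout libraries, so their direction came with the filter. The neuronal-type enolase gene Eno2 (2.15), the aldolase gene Aldoc (2.07), the lactate transporter gene Slc16a3 (1.71) and the lactate dehydrogenase gene Ldhb (1.66) had the smallest adjusted p among all that rose. The Eno1 row held 0.970 ± 0.115 CPM in wild type and 1.35 ± 0.571 CPM in the knockout, while the row of Gm5506, which RefSeq lists as an older symbol of the enolase gene Eno1b, held 360.1 ± 17.3 and 517 ± 52.2 CPM. Reads of those 2 genes may be split between the rows, and their values are uncertain.

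Differences among the knockout libraries moved with transcript length. Knockout replicate 1 had the highest level of the 3 knockout libraries in 10 of 10 members, against 49.98% of all genes tested, whereas knockout replicate 3 was highest in 12 of the 21 lower-pathway genes, against 31.0% of all genes. The members' longest transcripts had a median of 3844.5 bases, those of the lower-pathway genes 1815 bases and those of all tested genes 3033 bases, with Gpi1 (2884) and Pfkm (2879) below the last. Over all tested genes with a length, the median log2 difference between knockout replicates 1 and 3 went from -0.33 in the shortest of 4 equal length classes to 0.38 in the longest. Among the members it ran from 0.10 for Gpi1 to 0.62 for Hk2. Between the groups, the median log2 fold change of all genes was 0.08 in the shortest class and -0.16 in the longest. After removal of the length and GC trend 8 members passed, among them all 5 called above, where 10135 of all 14988 genes passed as well (8345 before). Without knockout replicate 1, the log2 fold changes of Pfkp, Pfkl, Pfkm, Slc2a3 and Hk2 were 1.54, 0.69, 0.59, 0.53 and -0.86. The part of transcript length in the differences between the groups was not tested beyond this fit. On the 8 chromosomes that carry members, the median log2 fold change of all genes was 0.005 to 0.17.

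**Figure D5:**
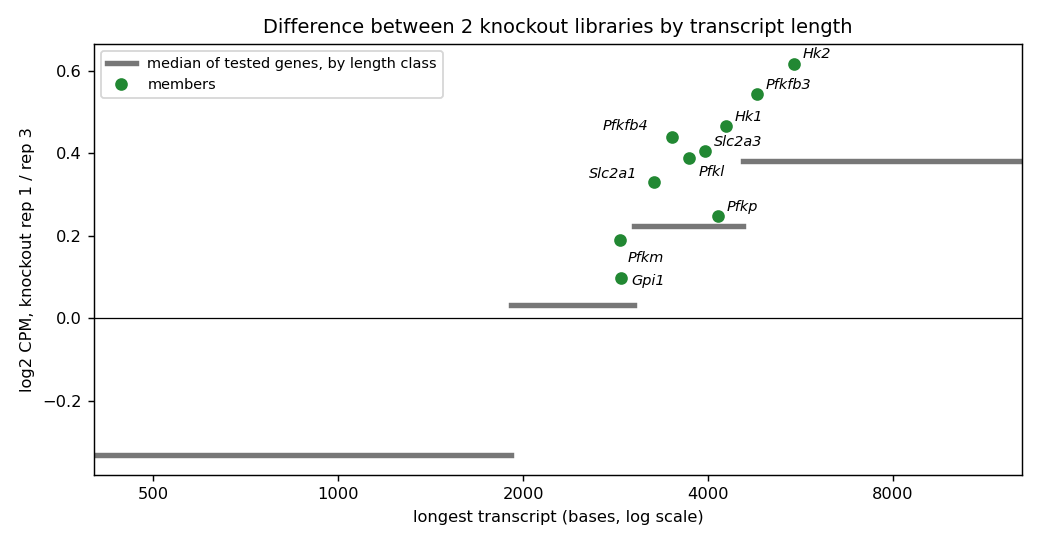
Log2 difference in CPM between knockout replicates 1 and 3 against the length of the longest transcript (bases, log scale), for the members (points) and as medians of all tested genes by length class (bars, the outer classes running past the axis). The medians go from -0.33 to 0.38, and the members from 0.10 for Gpi1 to 0.62 for Hk2.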

How the data were processed

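RNA-seq of mouse embryonic stem cells was deposited by the authors as raw counts per gene symbol for 6 libraries and as a table of their own comparison. HTSeq 0.6.1, TopHat2 2.0.10, the build mm9 and DESeq2 are named, per the submitters' processing notes. The sources used here do not name an annotation, strand setting or filter. Per the file headers, the authors' table holds a mean normalized signal per gene, the log2 fold change and its error, a test statistic (a score) and p-values, and it was used only where named.

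Libraries were grouped by their labels, 3 wild-type and 3 knockout. Raw counts were filtered with filterByExpr (minimum count 10), scaled by TMM and tested with edgeR 4.0.16 (quasi-likelihood, no covariate, common biological coefficient of variation 0.115), with Benjamini-Hochberg adjustment over all 14988 genes. Without stranded counting, reads of a gene and an antisense partner cannot be told apart. Log2 ratios of counts within a library were compared by exact permutation over libraries. Levels per kilobase used GENCODE M21 transcripts, and 21706 of the 23366 symbols matched directly and 1255 by an older symbol (Tigar stands in the table as 9630033F20Rik). Scripts were tested on simulated data. The alternatives were DESeq2 size factors, total counts, other filters, DESeq2 1.42.0, limma 3.58.1 (voom), a replicate block, a threshold of 0.01, a minimum log2 fold change of 1, removal of the length and GC trend, omission of each library, a pseudocount of 10 for the ratios, and median transcript lengths.

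The members and gene lists were chosen with earlier results of these data known. Named genes are the members, Sirt6 and, from each other list, up to 4 called genes with the smallest adjusted p. Pfkfb2, Adpgk, Pgam2, Eno1, Gm5506, Hif1a, Arnt, Kdm5d, Xist and the marker genes were named after their values were seen. 1 of the hexokinase relatives is not reported here.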

Additional observations from a re-analysis of the deposited data

How the results depend on the processing

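Pfkp (log2 fold change 1.54 to 1.73), Pfkl (0.69 to 0.97), Pfkm (0.58 to 0.80), Slc2a3 (0.53 to 0.77) and Hk2 (-0.86 to -0.57) kept their direction and their call under all 14 alternatives to the scaling, filter, tool, block, trend and set of libraries. The number of members called was 5 to 6 with 1 library left out (6986 to 9876 of all genes), 7 with total counts (5114 higher and 3101 lower of all genes), 8 once the trend on length and GC was taken out (10135 of all genes), and 1 with a log2 fold change of at least 1, where 3238 genes were called in all against 8345. With total counts as the scaling, 62.3% of the called genes were the higher ones, 50.1% with TMM, and the median log2 fold change of all genes was 0.13 against 0.01. Without the length and GC trend these were 43.4% and -0.07. Per kilobase of median instead of longest transcript, the levels in wild type and knockout were 697 and 804 for Slc2a1, 1989 and 3106 for Slc2a3, 68.7 and 79.5 for Hk1, 165 and 101 for Hk2, 657 and 776 for Gpi1, 94.1 and 168 for Pfkl, 63.9 and 194 for Pfkp, and 3.23 and 3.96 for Pfkfb3. Pfkm stood at 12.6 in wild type. These changes follow from the shorter lengths.

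Whether the replicate numbers pair the libraries was not settled. Deviations of same-numbered libraries correlated at 0.208, -0.0250 and 0.201. Those of differently numbered libraries ran from -0.216 (wild-type 3, knockout 1) to 0.0346 (wild-type 3, knockout 2). With the replicate block edgeR called 9352 genes and 5 members, and the sign-flip permutation of the ratios gave an exact p of 0.25 at the least, the smallest that 3 pairs allow. With 1 library left out, the ratio differences were 0.70 to 0.85 for Pfkp/Pfkl, 0.86 to 0.98 for Pfkp/Pfkm, -0.20 to -0.10 for Pfkm/Pfkl, -0.97 to -0.85 for Hk2/Hk1, 0.41 to 0.46 for Slc2a3/Slc2a1 and -0.31 (without wild-type replicate 1) to -0.08 (without wild-type replicate 3) for Pfkfb4/Pfkfb3, where exact permutation p ran from 0.1 to 0.5. Counts limit the precision most for Pfkfb3 and Pfkfb4.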

Other observations

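Genes that draw glucose-6-phosphate or fructose-6-phosphate away from glycolysis moved in both directions, with 3 of 8 tested called higher in the knockout and 3 lower (median log2 fold change -0.09). Over all genes tested, 27.9% were called higher and 27.8% lower. Gfpt2, which opens the hexosamine pathway from fructose-6-phosphate, fell from 147 ± 3.11 to 78.7 ± 3.03 CPM (-0.90), and Gys1, the glycogen synthase gene, fell from 85.9 to 51.7 CPM (-0.73). H6pd, the microsomal hexose-6-phosphate dehydrogenase gene, fell from 24.7 to 14.7 CPM (-0.74). Ugp2, which makes UDP-glucose, rose from 34.7 ± 1.39 to 49.2 ± 3.08 CPM (0.50).

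Among 13 regulators of glycolytic genes, 5 rose and 5 fell, where 27.9% of all genes were called higher and 27.8% lower. Arnt, also on this list, fell from 64.9 to 33.9 CPM (-0.93). Hif1a, the hypoxia-inducible factor gene, was at 195 CPM in wild type and 201 CPM in the knockout (0.05 ± 0.09, adjusted p = 0.700, edgeR). Its relative Epas1 fell from 81.2 to 11.2 CPM (-2.85) and Myc from 38.7 to 11.0 CPM (-1.81), whereas Mycn rose from 87.1 to 159 CPM (0.87). Txnip, whose product restrains glucose uptake, rose from 115 to 303 CPM (1.40).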
